A study of Mus musculus with 16 samples.

Results

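The regions described here are stretches of the mouse genome where END-seq, a sequencing method for double-strand breaks in DNA, gave a peak in every library from hearts with Lmna deleted in their myocytes and in no library from wild-type hearts. The peaks of 6 deposited lists on chromosomes 1 to 19 (mm10) were merged wherever they shared at least 1 bp, which gave 43619 regions. Of these, 1443 (3.31%) had a peak in all 3 lists of the knockout genotype Myh6-Cre:LmnaF/F (cKO below) and in none of the 3 wild-type (WT) lists. The reverse pattern, all 3 WT lists and no cKO list, was found for 23 regions (0.0527%). The shortest WT list held 1238 peaks on these chromosomes and the shortest cKO list 12808. The reverse pattern thus had far fewer peaks to draw on, and the counts cannot be compared directly. The libraries came from cardiac myocytes obtained by Langendorff perfusion, with 3 mice in each group. In cKO mice the Myh6 promoter, active in heart muscle cells, drives the Cre recombinase that removes the floxed Lmna alleles there. The labels name no group with Cre and intact Lmna, so Cre and the deletion cannot be told apart, and they give neither the age nor the sex of the mice. The regions were chosen by the presence and absence of peaks in these same lists, so the values below describe them and no test was made. Values for the 3 cKO mice are given in the order cKO 1, cKO 2, cKO 3.

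Lamin A and C form a meshwork under the inner nuclear membrane that supports the nucleus and anchors chromatin. Loss of lamin A and C in cardiac myocytes, and LMNA mutations in patients, lead to dilated cardiomyopathy with conduction disease. In END-seq, cells are embedded in agarose, the broken DNA ends are blunted and ligated to adapters, and sequencing reads then pile up beside each recurrent break. A break made at a different place in every cell gives no peak, so a peak list holds recurrent sites.

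Of the 1443 regions, 6 reached into one of the 31396 promoter windows of the RefSeq tables (250 bases before to 50 after an annotated transcript start, GRCm38.p6, the assembly of mm10) and 1 held a microRNA hairpin. The sequences given below are the shared stretches for the 6 promoter sites, since they show the DNA where a region meets an annotated start. For the hairpin the mature microRNA alone is given. Capitals mark bases from the annotated start onwards, and for the 2 protein-coding genes no base from the start onwards is shown. The stretches of Hcst and Gm39817 end 9 and 46 bases before the start, and that of Gm32748 begins after it. All read 5′ to 3′ on the strand of the gene. Gm41331 has more than 1 annotated start, and the capitals follow the one farther downstream.
Ggt1, chr10:75573396-75573494, plus strand: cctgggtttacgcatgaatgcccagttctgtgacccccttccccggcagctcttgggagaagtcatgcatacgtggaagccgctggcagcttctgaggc
Hcst, chr7:30419863-30420095, minus strand: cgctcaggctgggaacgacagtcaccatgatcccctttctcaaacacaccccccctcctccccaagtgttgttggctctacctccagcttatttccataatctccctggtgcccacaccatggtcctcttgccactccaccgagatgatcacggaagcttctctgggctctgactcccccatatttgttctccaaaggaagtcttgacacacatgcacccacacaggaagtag
Gm39817, chr11:46805001-46805155, minus strand: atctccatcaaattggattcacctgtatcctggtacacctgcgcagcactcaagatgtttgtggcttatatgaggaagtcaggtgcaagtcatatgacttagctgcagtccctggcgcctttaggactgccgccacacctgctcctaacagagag
Gm41331, chr15:60141748-60141960, plus strand: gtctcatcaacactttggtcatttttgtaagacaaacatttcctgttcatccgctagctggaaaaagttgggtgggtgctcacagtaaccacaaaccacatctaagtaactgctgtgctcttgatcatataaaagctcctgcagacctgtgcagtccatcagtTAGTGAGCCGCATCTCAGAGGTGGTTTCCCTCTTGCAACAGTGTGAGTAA
Gm52250, chr16:28238145-28238207, plus strand: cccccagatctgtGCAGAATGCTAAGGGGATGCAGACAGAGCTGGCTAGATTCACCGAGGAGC
Gm32748, chr10:68340185-68340230, minus strand: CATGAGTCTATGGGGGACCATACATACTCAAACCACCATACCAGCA
In the mature microRNA, capitals mark the seed, bases 2 to 8.
mmu-miR-7680-5p, chr16:21256047-21256066, minus strand: aUUCCAGUgaacaagcaguu

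The mean folds at the 6 promoter sites ran from 11.4 to 22.3. The fold is the authors' value for a peak over the background of its own library. Ggt1 encodes a gamma-glutamyltransferase of glutathione breakdown. The region lay at an annotated start well inside the span of the gene and had folds of 24.3, 6.43 and 8.51. Hcst encodes an adaptor of the NKG2D receptor of lymphocytes, and its upstream region had folds of 27.4, 12.9 and 18.95. The lncRNA gene Gm52250 had the highest mean fold of the 6, 22.3 ± 4.68 (SD, n = 3), and Gm39817 the lowest, 11.4 ± 4.58. Mir7680, on chromosome 16, lay whole inside its region (21255952 to 21256177), with folds of 31.3, 15.6 and 19.8. The cKO 1 fold was the highest of the 3 in each of these examples. The WT peak nearest to any of the 7 regions was 49.9 kb away, from the one at Gm41331. Promoter windows were reached by 0.416% of the 1443 regions and by 1.07% of the other 7256 regions with a peak in all 3 cKO lists, all of which also had a WT peak. Both shares are taken over all regions, also those at genes with no listed start, so they are lower limits.

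The 6 lists differed in length, and the peak names in WT 3 and cKO 1 do not match the labels of these lists. WT 1, WT 2 and WT 3 held 1238, 14881 and 7790 peaks on these chromosomes, and cKO 1, cKO 2 and cKO 3 held 28445, 12808 and 21118. In the list labelled cKO 1 the peak names start with WT-4, as they do in WT 3, which is titled WT-3, although their positions and values differ. Left out of the rule, this list raised the number of regions from 1443 to 1643, a rise that the looser rule makes by construction. Of the regions that cKO 2 and cKO 3 share without a peak in WT 2 or WT 3, 87.4% had a peak in the library labelled cKO 1, below the 95.1% among all 9150 regions that cKO 2 and cKO 3 share.

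Sequencing depth is not stated, but the lists hold a trace of it. In each list the low folds were whole multiples of 1 spacing, from 0.488 in WT 1 to 0.691 in cKO 1. For 97.3% to 99.9% of the peaks of a list, a whole number of stacked fragments at the summit (the pileup) gave both the fold, as pileup plus 1 over background plus 1, and the Poisson p-value within 0.01 on the −log10 scale. The background implied by the spacing was 1.05, 0.700 and 0.597 fragments per position for WT 1 to WT 3. For the cKO mice it was 0.446, 0.711 and 0.528. The shortest list, WT 1, thus had the highest implied background. At that background the lowest listed peak had a pileup of 8 in WT 1, 6 in WT 2 and WT 3, and 5, 6 and 5 in the cKO lists. As folds these limits were 4.39, 4.12 and 4.38 for WT and 4.15, 4.09 and 3.93 for cKO. Peaks where the local background differed had other limits, and the lowest folds in WT 1, WT 2 and WT 3 at any cKO-wide region were 1.92, 2.14 and 1.95. Where a region has no WT peak, fewer fragments than this are therefore still possible, and breaks are not shown to be absent.

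Membership rested largely on WT 2. Of the 8699 regions with a peak in all 3 cKO lists, 82.2% had one in WT 2, 43.0% in WT 3 and 5.84% in WT 1. Of the 1548 without a WT 2 peak, 98 were set aside by WT 3 alone, 1 by WT 1 alone and 6 by both, which left the 1443, or 16.6% of the 8699. Without WT 2 the rule took 4935 regions, without WT 3 it took 1539 and without WT 1 it took 1444. On the cKO side the number was 4888 without cKO 2 and 2218 without cKO 3. List length moved with the result as well. With every list cut to its 1238 peaks of highest fold, the length of WT 1, the rule took 61 regions, of which 3 were among the 1443. With WT 1 left out and the others cut to the 7790 peaks of WT 3, an alternative chosen after seeing the data, it took 489, including 258 of the 1443.

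The regions were in general weaker than the other regions shared by all cKO lists. Their median fold was 20.4 in cKO 1 (middle 50% from 14.9 to 27.4), 13.3 in cKO 2 (9.93 to 17.6) and 13.8 in cKO 3 (10.5 to 18.4). For the other 7256 regions the medians were 33.9, 24.4 and 27.7. As pileup, the 1443 had medians of 34, 23 and 21 fragments, against 79, 53 and 57. In all 3 cKO lists at once, 1411 of the 1443 (97.8%) exceeded a fold of 5, 909 (63.0%) exceeded 10, 410 (28.4%) exceeded 15 and 150 (10.4%) exceeded 20.

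**Figure D1:**
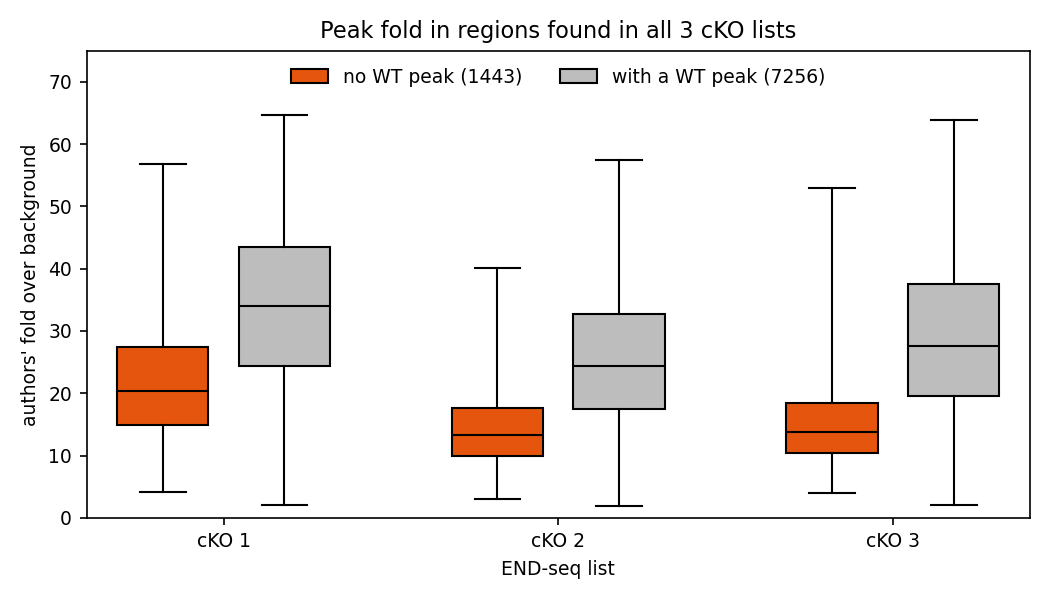
Authors' fold over background (linear axis, no unit) in cKO 1, cKO 2 and cKO 3 for the 1443 regions without a WT peak and the 7256 with one; boxes show the middle 50% with the median, and whiskers reach the lowest and highest value. The medians of 20.4, 13.3 and 13.8 without a WT peak lie below the 33.9, 24.4 and 27.7 with one, and the ranges overlap.

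Within a region, the cKO lists kept a loose order. The highest of the 3 folds was that of cKO 1 in 79.8% of the 1443 regions and in 75.9% of the other 7256. The lowest was that of cKO 2 in 53.8% and of cKO 3 in 39.3% of the 1443. Across the 1443 regions, Spearman's correlation of the folds was 0.634 between cKO 1 and cKO 2, 0.679 between cKO 1 and cKO 3 and 0.687 between cKO 2 and cKO 3. Across the other 7256 it was 0.852, 0.873 and 0.904. These correlations run over regions, which share libraries, and a narrower range of folds alone lowers them.

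The share of regions without a WT peak fell as the mean cKO fold rose above 5. It was 51.0% of the 314 regions with a mean fold over 5 and up to 10, 48.4% of 971 up to 15, and 30.8% of 1367 up to 20. Among stronger sites it was 16.1% of 1441 up to 25, 8.28% of 1256 up to 30, 2.68% of 1901 up to 40 and 0.281% of 1424 above 40. WT 2 had a peak at 42.0% of the regions in the bin from 5 to 10 and at 99.4% of those above 40. WT 3 fell from 24.8% in the bin from 5 to 10 to 13.3% from 10 to 15 and then climbed to 89.7%, whereas WT 1 reached 22.8% at most above a mean fold of 5. The 25 regions with a mean fold of at most 5 were an exception, with a WT 1 peak at 80.0% and 1 region without a WT peak.

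**Figure D2:**
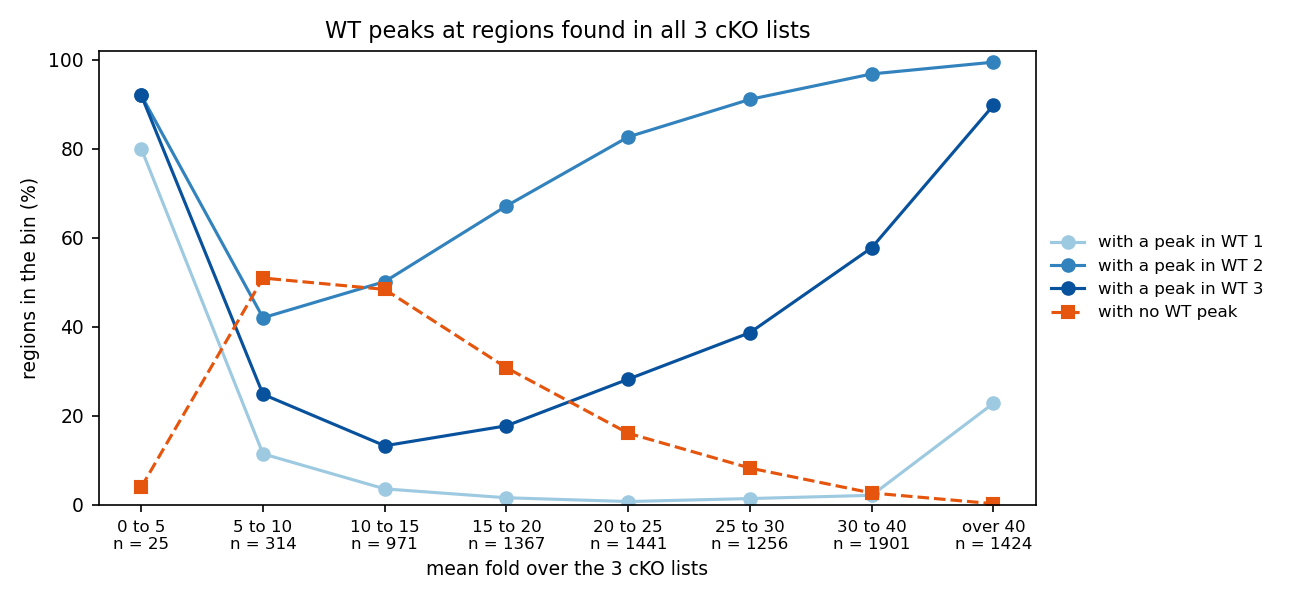
Share of the regions found in all 3 cKO lists (y axis, %) that had a peak in WT 1, WT 2 or WT 3 or in no WT list, by the mean fold over the 3 cKO lists (x axis, bins with their number of regions). Regions without a WT peak made up 51.0% of the bin from 5 to 10 and 0.281% of the bin above 40, while WT 2 rose from 42.0% to 99.4%.

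Some sites had a high mean fold and still no peak in the WT lists. A mean fold above 30 was reached by 55 of the 1443, against 3325 of the 8699, so 1.65% of the regions above that mean had no WT peak. A fold above 30 in each of the 3 cKO lists was rarer, at 13 of the 1443 (0.901%) and 2222 of the 8699. The 55 were spread over all 19 chromosomes, with at most 6 on 1 of them, and 21 lay inside a protein-coding gene.

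The strongest lay on chromosome 9 from 41207127 to 41207363, inside the lncRNA gene 1700063D05Rik and 45.4 kb from Ubash3b, which encodes a tyrosine phosphatase of T cell signalling. Its folds were 56.8, 39.7 and 52.9, from pileups of 312, 138 and 209 fragments. The nearest WT peak was 25.9 kb away. The second lay on chromosome 15 from 50533989 to 50534274, outside any annotated gene and 120 kb from Trps1, which encodes a GATA-type repressor. Its folds were 55.7, 40.1 and 51.8, from pileups of 261, 147 and 198. In both, cKO 1 was the highest and cKO 2 the lowest.

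Protein-coding genes held some of the next regions. Pnp, which encodes purine nucleoside phosphorylase, held one on chromosome 14 (50949083 to 50949305) with 45.3, 39.1 and 36.9. The region in Dlgap2 (chromosome 8, 14620137 to 14620367), a gene of a postsynaptic scaffold protein, had 47.5, 31.0 and 35.0. Pnp had no WT peak anywhere in its span, while Dlgap2 did.

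A further 5 of the 10 strongest lay outside protein-coding genes. A site on chromosome 4 (142925259 to 142925488), 182 kb from the histone methyltransferase gene Prdm2, had folds of 45.9, 30.7 and 40.6. Chromosome 13 held 3 of them, named here by the nearest gene. They were 126 kb from Ell2, a transcription elongation factor gene (mean fold 37.7 ± 7.34, SD, n = 3), 66.7 kb from Tent4a, a poly(A) polymerase gene (36.3 ± 8.71), and 3.98 kb from Sptlc1, a gene of sphingolipid synthesis (36.2 ± 9.78). The last, on chromosome 6, lay 1.25 kb from Arl8b, which encodes a small GTPase of lysosomes, with 36.6 ± 9.02. All 10 strongest regions had their highest fold in cKO 1, and the lowest was in cKO 2 except at Sptlc1 and Pnp, where it was in cKO 3. The summits of the 3 cKO peaks lay within 18 bp of each other in all 10.

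**Figure D3:**
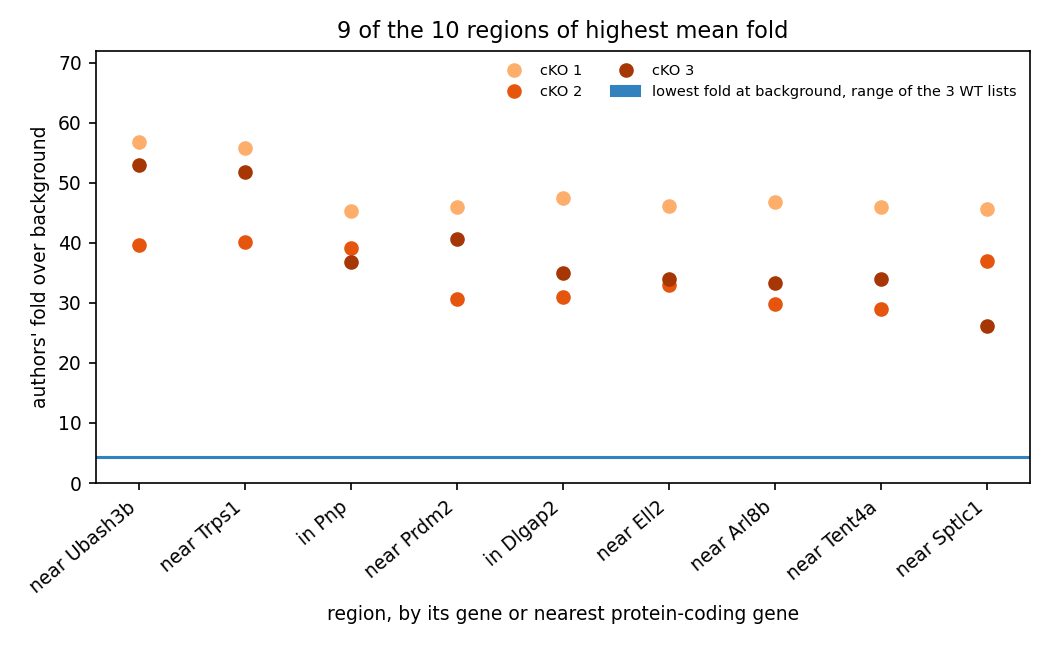
Authors' fold over background (linear axis) in cKO 1, cKO 2 and cKO 3 for 9 of the 10 regions of highest mean fold, each named by the gene that holds it or by the nearest protein-coding gene. The blue band marks the lowest fold at background in the WT lists, 4.12 to 4.39; every point lies at 26.1 or higher.

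At the other end stood a region on chromosome 8 (20527835 to 20528112), 21.2 kb from Gm40469, with folds of 5.58, 4.66 and 4.24. The widest region, 822 bp in Katna1 on chromosome 10, a gene of the microtubule-severing enzyme katanin, had summits up to 480 bp apart and folds of 24.9, 6.44 and 15.4. Across all 1443 the median width was 200 bp (middle 50% from 179 to 223), against 227 bp for the other 7256. In 94.8% of the 1443 the cKO summits lay within 50 bp of each other, and in 97.9% of the others; the median distance between the outermost summits was 12 and 8 bp. Overlap of the peaks was itself required by the rule.

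The boundary set by the rule was crossed by few near misses. No region had a WT peak within 100 bp, and 10 of the 1443 had one within 1000 bp. The closest WT peak was 177 bp, or 0.177 kb, from a region near Lrfn5 on chromosome 12, which had folds of 23.6, 15.4 and 11.4. Just outside the rule, no region was excluded by a WT peak that shared 50 bp or fewer with a cKO peak, and the smallest overlap was 84 bp. That region, on chromosome 5 near G6pd2, had cKO folds of 6.14, 6.10 and 7.06 and a WT 3 fold of 6.74. Of 3592 regions excluded by 1 WT list alone, 24 had a WT fold of 5 or less.

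Lists that took no part in choosing the regions show how far such regions recur. For this the rule was applied with 1 cKO and 1 WT list left out, and the left-out lists were then searched, in all 9 combinations, which share lists with each other. With WT 3 left out, the regions had a peak in the left-out cKO list in 86.9% (cKO 1, 1771 regions), 30.5% (cKO 2, 5037 regions) and 65.6% (cKO 3, 2347 regions) of cases. WT 3 had one in 7.23%, 2.96% and 5.54% of the same regions. Both shares were lower than among all regions that the remaining cKO lists have in common, with or without a WT peak, where the left-out cKO list had a peak at 95.1%, 60.4% and 87.3% and WT 3 at 42.1%, 28.0% and 38.9%. With the left-out cKO list shortened by fold to the 7790 peaks of WT 3, the cKO shares were 27.7%, 16.2% and 19.4%, and each remained above that of WT 3. These regions had already been required to lack a WT 1 and a WT 2 peak. Of the 3742 regions in all 3 cKO lists with a WT 3 peak, 98 had no other WT peak. The rule itself thus lowers the WT 3 share, and the comparison does not show a difference between the genotypes.

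WT 2 behaved otherwise. With WT 2 left out, the rule took 5257, 10338 and 6066 regions, and WT 2 had a peak at 68.7%, 52.7% and 63.4% of them. The left-out cKO 1, cKO 2 and cKO 3 had one at 93.9%, 47.7% and 81.4%. Among all regions that the remaining cKO lists have in common, the shares were 80.3%, 64.9% and 76.3% for WT 2 and 95.1%, 60.4% and 87.3% for the cKO lists. At equal list length the shares were 81.0% against 68.7% for cKO 1 and WT 2, 47.7% against 51.4% for cKO 2 and WT 2, and 78.6% against 63.4% for cKO 3 and WT 2. WT 2 thus held most of the regions that both remaining cKO lists shared and the other 2 WT lists lacked. At the length of WT 1, no left-out list had a peak at more than 0.605% of the regions. That share was of WT 1 itself, against 0.363% for cKO 1. With cKO 2 left out both shares were 0.102%, and with cKO 3 left out they were 0.135% against 0.0451% for WT 1.

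**Figure D4:**
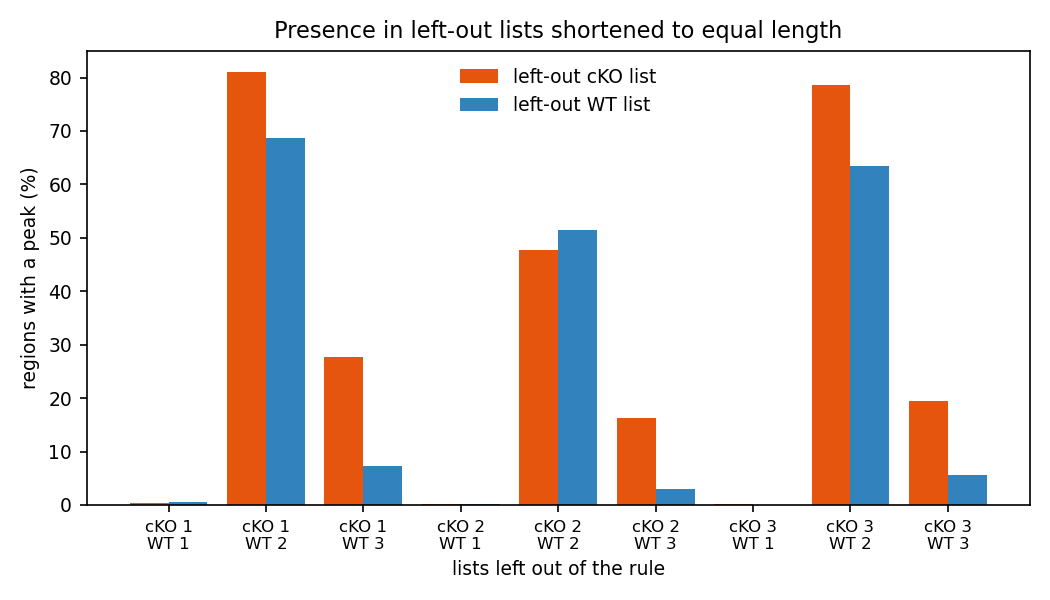
Share of regions (y axis, %) with a peak in the left-out cKO list and in the left-out WT list, both shortened to the length of the shorter, for the 9 pairs of lists left out (x axis). With WT 3 left out the cKO shares of 27.7%, 16.2% and 19.4% exceed those of WT 3, and with WT 2 left out the order is reversed for cKO 2 (47.7% against 51.4%). The regions lack a peak in the remaining WT lists, which by itself lowers the WT 3 share. With WT 1 left out it is reversed for cKO 1 (0.363% against 0.605%), and for cKO 2 both shares are 0.102%.

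The regions were spread along the chromosomes much as the other cKO sites were. Chromosome 1 held 113, the largest number, and chromosome 19 held 32, the smallest. As a share of all regions with a peak in all 3 cKO lists, they made up from 13.7% (chromosome 7, 80 of 585, and chromosome 18, 45 of 329) to 19.5% (chromosome 14, 71 of 364), against 16.6% in all. They rarely lay close together: the median distance to the nearest other such region was 607 kb, and 16 of 1443 had one within 10 kb. The nearest WT peak, at some other site, was 50.5 kb away at the median, and 163 regions (11.3%) had one within 10 kb.

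**Figure D5:**
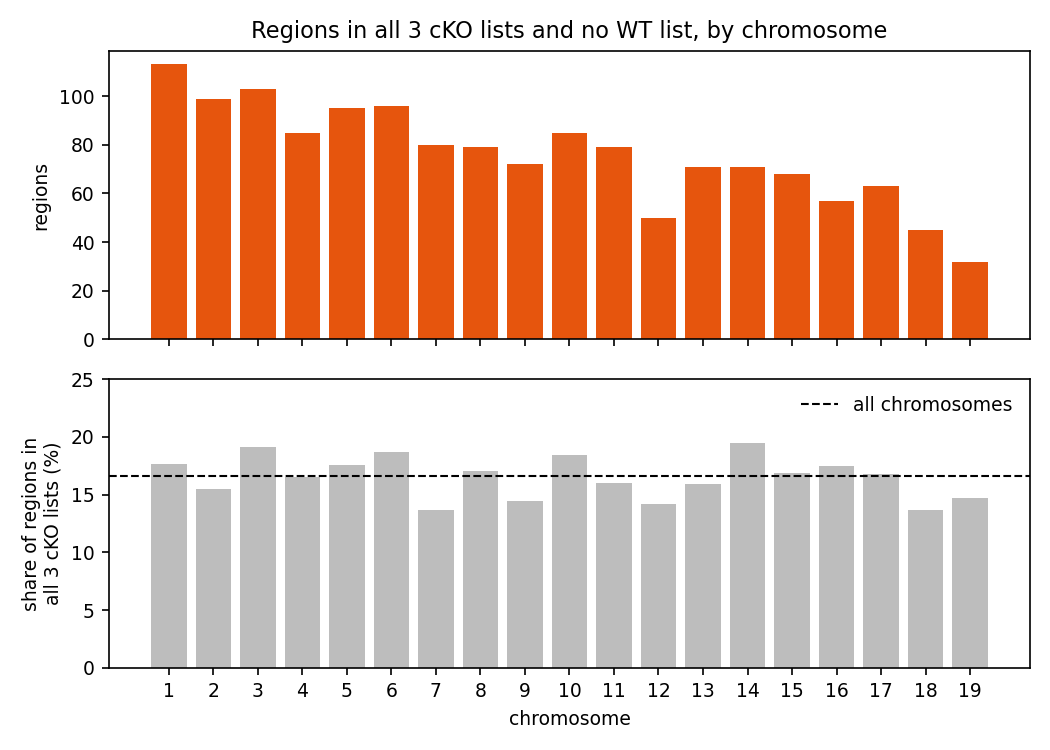
Number of regions found in all 3 cKO lists and no WT list on each chromosome (upper axis), and their share of the regions found in all 3 cKO lists (lower axis, %; dashed line, 16.6% over all chromosomes). Numbers range from 113 on chromosome 1 to 32 on chromosome 19, and shares range from 13.7% to 19.5%.

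Position relative to gene spans was close to that of the other cKO sites, while a smaller share lay near a listed transcript start. Protein-coding genes held 591 of the 1443 regions (41.0%) within their spans, and 43.8% of the other 7256. A further 108 regions (7.48%) lay in a lncRNA gene alone, and 733 (50.8%) lay outside every annotated gene, against 8.54% and 46.6%. Regions outside protein-coding genes were 76.3 kb from the nearest one at the median, against 65.5 kb. Within 1000 bp of a listed transcript start lay 30 regions (2.08%), and 270 of the other 7256 (3.72%). Within 10 kb the shares were 18.9% and 21.5%. No start was listed on chromosome 18. For the region inside Clu, a gene of 13.1 kb, the nearest listed start was 1189 kb away. The starts of some genes were thus missing, so these counts are lower limits. The gene table gives no exons, so exon and intron were not told apart. Neither Lmna nor Myh6 held one of the regions.

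The 591 genic regions fell in 548 of 20665 protein-coding genes (2.65%), and 223 of these 548 had no WT peak anywhere in their span. The share of genes with such a region rose with gene length, from 0.163% of genes up to 10 kb and 3.13% of those over 30 and up to 100 kb to 31.1% of the 533 genes over 300 kb. The median length was 134 kb for the 548 genes, 89.3 kb for the 2428 genes with another cKO-wide region and 17.5 kb for all genes. Only 46 of the 548 held more than 1 such region, with a median length of 617 kb.

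The genes with the most regions were long, and several are known from neurons. Ctnnd2, which encodes a catenin of cell junctions (chromosome 15, 857 kb), Rbfox1, a splicing regulator gene active in heart and brain (chromosome 16, 1528 kb), and Plce1, which encodes a phospholipase C (chromosome 19, 304 kb), held 3 each. In Plce1 they were 3 of 4 cKO-wide regions, in Ctnnd2 3 of 5 and in Rbfox1 3 of 10. The strongest region of Ctnnd2 had folds of 28.2, 21.4 and 21.1, that of Rbfox1 had 25.4, 22.0 and 23.1, and that of Plce1 had 26.0, 13.4 and 15.7. Among genes with 2, the leading ones by fold were the synaptic adhesion gene Lrrc4c (43.9, 28.0 and 32.4), the tRNA-modifying enzyme gene Cdkal1 (44.8, 26.3 and 30.9), Thsd7a (41.8, 28.2 and 32.0) and the collagen gene Col19a1 (41.8, 24.6 and 24.6). Lsamp and Grm8, a neural adhesion gene and a glutamate receptor gene, and Auts2 followed. All 10 genes also had a WT peak elsewhere in their span.

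Very long, mostly neuronal genes had the highest count of the 15 lists. Of 48 genes with a median length of 1196 kb, 25 held one of the regions (52.1%, against 2.65% of all protein-coding genes and 31.1% of those over 300 kb), and all 48 held a cKO-wide region of some kind. The share among genes over 300 kb is not matched to the median length of this list. The regions without a WT peak numbered 37 there, beside 173 with one. Inside all protein-coding genes these numbers were 591 and 3175, a similar proportion. Lsamp (39.0, 25.01 and 26.8), Immp2l, which encodes a mitochondrial peptidase (37.6, 22.7 and 28.6), Grm8 (39.7, 21.1 and 27.9) and Auts2 (32.8, 23.3 and 25.8) had the highest mean folds of the list.

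Among genes of the heart's own machinery the share ran from none to 9.38%, against 2.65% of all protein-coding genes. Of 35 contractile genes, 1 held such a region (2.86%): Myom1, which encodes the M-band protein myomesin, with weak folds of 6.22, 7.01 and 7.85. Of 32 ion channel and calcium-handling genes, 3 did (9.38%, median length 141 kb). The share was 8.76% among all protein-coding genes over 100 and up to 300 kb. Asph, whose products include the calcium store protein junctin, held 2 regions, the stronger with folds of 31.8, 14.0 and 19.9. The calcium channel subunit gene Cacnb2 also held 2 (stronger one 17.9, 7.85 and 9.21), and Ank2, which encodes the membrane anchor ankyrin B, held 1 (18.3, 17.1 and 12.4). All 3 had WT peaks elsewhere in their span. None of the 27 cardiac transcription factor genes and none of the 19 fetal and stress-response genes held one, though 5 and 1 of them held cKO-wide regions with a WT peak.

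Of 37 mitochondrial and fatty acid oxidation genes, 3 did (8.11%, median length 24.8 kb), against 2.65% of all protein-coding genes. None of these 3 had a WT peak in its span. A count this small was not tested against that share. They were Gpd2, whose enzyme passes electrons from glycerol phosphate to the respiratory chain, with folds of 38.6, 32.4 and 36.2, Cat, the gene of the peroxisomal enzyme catalase, with 40.5, 24.1 and 30.9, and Mfn2, which encodes a mitochondrial fusion protein, with 17.97, 11.7 and 21.2. Gpd2, Cat, Atm, Myom1 and Pnp had been named in earlier results of these data that were known when the lists were written, so the counts of their lists are not independent of those results.

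Of 40 DNA damage response genes, 2 did (5%), against 2.65% of all protein-coding genes. Counts this small were not tested against that share, here or for the lists that follow. Atm, which encodes the kinase that signals double-strand breaks, had a region with folds of 38.4, 25.6 and 31.9. This region was a near miss of the rule, with a WT peak within 1000 bp, and the span of Atm held a WT peak. Fancd2, of the Fanconi anaemia repair pathway, had 9.55, 9.82 and 9.82. Of 19 nuclear envelope genes, 1 did (5.26%). Syne1, which encodes nesprin 1, held 1 region with 15.8, 12.9 and 7.85, beside 4 with a WT peak. Of 26 matrix and TGF-beta genes, 2 did (7.69%). Col5a2 (37.5, 15.3 and 21.8) and the fibrillin gene Fbn1 (9.48, 9.89 and 10.5) held 1 each.

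Marker genes of other heart cells held 1 region in all: Ptprb, among 11 endothelial genes, had folds of 12.6, 18.04 and 16.0. None was found in 11 fibroblast, 10 smooth muscle and pericyte or 11 immune cell markers, nor in 16 housekeeping genes. With 2.65% of all protein-coding genes holding a region, lists of this size hold too few genes to tell a count of 0 or 1 from that share. A break list measures no expression, so these lists do not show which cells were present.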

How the data were processed

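END-seq peak lists of 3 WT and 3 cKO mice were used, grouped by title. Each library has a peak list of its own. The submitters' processing notes name FastQC, SEACR, DiffBind and the build mm10, but give no version and do not say what each did. Which aligner was used is not given in the sources. Each deposited list gives, per the file headers, a fold over background (a linear ratio within the library), the −log10 of p and of q, and an unused score. Every deposited peak had a q of at most 0.01.

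Peaks on chromosomes 1 to 19 that shared at least 1 bp were merged, and a region took the highest fold of its peaks in a list. Coordinates are 1-based. Genes came from the RefSeq table of GRCm38.p6, which has no strand or exons, and starts from its promoter table. The promoter table used held no start on chromosome 18 and lacked the starts of some other genes. The 365 listed genes are those matched on these chromosomes. Pileups were inferred from fold and p-value; the formula used is that of the MACS caller, which the sources do not name. Read depth is otherwise unknown. A peak exists where a caller passed, so lists can grow with depth and enrichment.

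The regions and the 15 gene lists were chosen with earlier results of these data known. Regions were named as the 10 of highest mean fold, the lowest and the widest; genes as the 10 with most regions, up to 4 per list by mean fold, and Lmna and Myh6. Regions at promoters, at the microRNA and nearest the rule's boundary are exceptions to this rule, picked once their values had been seen. No genome sequence of the build was used, so sequence composition and motifs, which had been planned, were not analysed. Some regions and genes that the rule takes, and 1 gene list, are not reported here. The lamin A intervals, on another build, were not used here. Merging and pileup recovery were tested on simulated data. Scripts ran in Python 3.11.15 with scipy 1.17.1 for intervals, pandas 2.3.3 and numpy 2.4.6 for tables, and matplotlib 3.10.9 for plots.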

Additional observations from a re-analysis of the deposited data

How the results depend on the processing

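Of the alternative values for counts, shares and medians, 55 stayed within the spread between cKO lists, within the 95% interval of a share or within 1.5 times a count, and 31 moved further. The interval is a binomial one over the 8699 regions, which come from the same lists. It serves as a yardstick only and measures no spread between mice. The folds of the 10 strongest regions are mostly fixed by construction and are not counted. The counts rise by construction when a list is left out. No paired analysis was possible because no result came from a test. GC content was not run, since no genome was used.

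The number of regions was 1443. With every list shortened to 1238 peaks it was 61 (7.34% of the regions in all cKO lists; 31.1% in genes, median mean fold 45.3, width 260 bp, 20 genes), and 3 of the 1443 were among them. With at least 2 of 3 cKO lists it was 5863 (36.4%, width 183 bp, 1947 genes). Leaving out WT 1 and cutting the rest to 7790 peaks, chosen after seeing the data, gave 489 (9.38%, fold 25.1, 192 genes), including 258 of the 1443 and all 10 of the strongest. With cKO 1 and cKO 3 shortened to the length of WT 2, also chosen afterwards, it was 1032 (13.3%). With chromosomes X and Y it was 1607 (17.6%). In any annotated gene lay 49.2%.

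Leaving out 1 list at a time gave 1444 to 4935 regions, 16.6% to 56.7% of the regions in all cKO lists, 39.8% to 43.2% in genes, median mean folds of 12.9 to 21.2, widths of 176 to 209 bp and 548 to 1720 genes. Leaving out a list loosens the rule, so every region stays by construction. With lists of 1238 peaks, 3 of the 10 strongest remained.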
